A study of Arabidopsis thaliana with 18 samples.

Results

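In root tips treated with the peptide TOLS2, 3 arrays of the mutant labelled puchi-2 were set against 3 arrays of the receptor mutant rlk7-3. The comparison uses 6 of the 18 arrays of the study and the 16722 of 38408 probe sets to which the platform annotation gives exactly 1 gene. Both groups of Arabidopsis thaliana seedlings were 5 days old, grown in continuous light, and held for 3 h on medium with 1 µM TOLS2. About 80 root tips of 1 cm were pooled for each array, which the labels call a biological replicate. The same mutants on medium without peptide (3 arrays each) and wild type with and without TOLS2 (3 arrays each) are used beside them, so that no wild-type array enters the comparison itself. The labels name the mutants only as rlk7-3 and puchi-2 and give neither the lesions nor the background line. All values are log2 levels, and a difference is puchi-2 minus rlk7-3 on that scale unless another is named.

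TOLS2 is a short peptide that root cells secrete, and its gene acts downstream of the lateral root regulator LBD16. RLK7 is the leucine-rich repeat receptor kinase through which plants perceive such peptides. PUCHI is an AP2/ERF transcription factor known for its part in the early divisions and spacing of lateral roots. A mutant without a working receptor would not read the peptide through it, whereas a mutant of a transcription factor would keep the receptor. Whether the receptor is lost in the receptor mutant could not be checked here. Setting both side by side under peptide asks which transcripts differ between these genotypes, within treated plants. Such a difference holds any effect of either genotype, and dependence on the receptor was not tested separately.

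Array medians over all rows ran from 6.189 to 6.296 among the 6 arrays, and no pair of the 6 correlated below 0.983. The first principal component of the 6 arrays held 33.2% of the variance and parted the genotypes, with rlk7-3 arrays between −18.2 and −13.2 and puchi-2-labelled arrays at 15.2 or above. The next component held 26.6% and followed the replicate number, at 19.8 and 19.7 on the replicate 1 arrays, −4.9 and −5.2 on those of replicate 2, and −14.9 and −14.4 on those of replicate 3. Over all tested probe sets the median difference was −0.06, and 33.8% of them were above 0. The root hair markers EXPA7 and EXPA18 were measured at mean levels of 10.05 to 10.17 in puchi-2 and 9.91 to 10.19 in rlk7-3, while no marker of root cap, xylem or stem cell niche on the lists used was measured with 1 gene.

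The targeted genes were examined first. No probe set with 1 gene was named for RLK7, so that genotype could not be checked. PUCHI read 6.32, 6.27 and 6.15 on the puchi-2-labelled TOLS2 arrays and 4.59, 4.43 and 4.28 on the rlk7-3 TOLS2 arrays. Its signal was thus higher in the library labelled puchi-2, by 1.81 (SE 0.12, 3.52-fold, limma adjusted p = 3.6e-05), with no overlap between the groups. On control arrays it read 5.04, 5.45 and 5.44 against 4.39, 4.21 and 4.22, a difference of 1.04 (limma adjusted p = 0.0352). This control call ended without puchi-2 replicate 2 or 3 or without any 1 of the 3 rlk7-3 control arrays (adjusted p from 0.109 to 0.303), and from the 6 control arrays alone (0.287). Wild type read 4.68, 4.15 and 4.85 without peptide and 6.52, 6.45 and 6.58 with it. The PUCHI signal goes against a simple reading of the label as loss of the transcript. Where on the transcript the probe set lies is not given in the sources used here, so this does not settle the genotype. The group is therefore named by its label.

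Under TOLS2, limma called 253 probe sets (1.51% of those tested), 135 higher (0.807%) and 118 lower (0.706%) in puchi-2-labelled root tips than in rlk7-3. They belong to 135 and 118 different genes. The higher side held the large values: 55 of its genes differed at least 2-fold (0.329% of those tested) against 11 on the lower side (0.0658%), and the median difference of the called genes was 0.90 on the higher and −0.58 on the lower side. Without peptide the same genotypes differed in 2 probe sets (0.012%), QQS and PUCHI, both higher in puchi-2, the PUCHI call with the limits just given. In root tips, more cells of a type and more RNA per cell cannot be told apart. The arrays of both genotypes did not overlap in 19.7% of probe sets with TOLS2 (4.85% higher, 14.9% lower in puchi-2) and in 10.8% without it (6.49% higher, 4.35% lower). At an unadjusted p under 0.05 limma had 15.7% of probe sets with TOLS2 and 4.48% without.

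The split between higher and lower moved with the processing, in both directions. After each array was centred on its median, limma called 190 higher and 75 lower (71.7% higher, against 53.4% as deposited). After a renewed quantile normalization it called 177 higher and 84 lower (67.8%). Lower calls outnumbered higher ones with all 18 arrays in the fit (203 higher, 241 lower, 45.7% higher), with an intensity trend and robust prior (213 and 272, 43.9%) and among the brighter 50% of probe sets (151 and 285, 34.6%). The count fell to 113 without puchi-2 TOLS2 replicate 2, to 167, 153 and 122 without rlk7-3 TOLS2 replicate 1, 2 and 3. With replicate 1 left out in every group it was 63, of which 57 were among the 253. From the 6 arrays alone limma called 56, all of them among the 253. Of the 15 largest called differences each way and PUCHI, 31 genes in all, 13 kept their call under every alternative run.

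Class III peroxidases, secreted haem enzymes that make and use hydrogen peroxide in the cell wall, were among the largest differences. Of 65 measured members, a list added after values were seen, limma called 7 higher and 1 lower (12.3%, beside 1.51% of all probe sets). The median difference of the family was 0.04, beside −0.06 for all probe sets, with 34 members above 0 and 31 below. The arrays did not overlap for 17 members on the higher and 12 on the lower side, beside 4.85% and 14.9% of all probe sets. An unadjusted p under 0.05 was found for 21 members, beside 15.7% of all probe sets. PRX52 read 9.11, 9.21 and 8.70 in puchi-2 with TOLS2 and 4.79, 5.57 and 4.68 in rlk7-3 with TOLS2. The groups lay far apart, by 3.99 (SE 0.23, 15.9-fold, limma adjusted p = 1.85e-05), and both mutants without peptide, at 4.55 to 5.04, overlapped with the rlk7-3 TOLS2 arrays. AT4G08780 read 10.29, 9.65 and 9.41 against 6.05, 5.97 and 6.91, a difference of 3.47 (SE 0.32, 11.1-fold, adjusted p = 0.000562). Without peptide this gene leaned the other way, at 5.54, 6.01 and 5.40 in puchi-2 and 6.52, 7.0 and 6.03 in rlk7-3 (−0.87, adjusted p = 0.999). With replicate 1 left out in every group the difference of AT4G08780 was 3.09 and no longer called (adjusted p = 0.054).

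The other called peroxidases were more moderate. AT4G36430 read 9.75, 9.59 and 9.34 against 6.88, 7.37 and 7.53, a difference of 2.30 (SE 0.18, adjusted p = 0.000156). Prx37, peroxidase 37, is the gene next to AT4G08780 among those measured and read 11.67, 11.63 and 11.83 against 10.63, 10.60 and 10.91. Its groups did not overlap although the difference of 1.0 (adjusted p = 0.000562) was smaller than that of its neighbour. AT5G14130 (1.28, adjusted p = 0.0202), AT2G18150 (1.2, adjusted p = 0.000588) and AT5G64120, peroxidase 71 (0.97, adjusted p = 0.0227), were also called higher. AT5G15180 was the called member on the lower side, at 9.02, 9.41 and 9.44 against 9.90, 10.03 and 10.05 (−0.70, adjusted p = 0.0109). AT2G18150 resembled AT4G08780 in that its control difference was negative (−0.73). The call of AT5G64120 ended without puchi-2 TOLS2 replicate 2 or 3 or rlk7-3 TOLS2 replicate 1 or 2 (adjusted p from 0.0714 to 0.0864), and that of Prx37 with replicate 1 left out in every group (0.0538). With replicate 1 left out in every group limma called 4 peroxidases higher and 0 lower. AT5G14130, AT2G18150 and AT5G15180 were chosen after their values were seen.

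**Figure D1:**
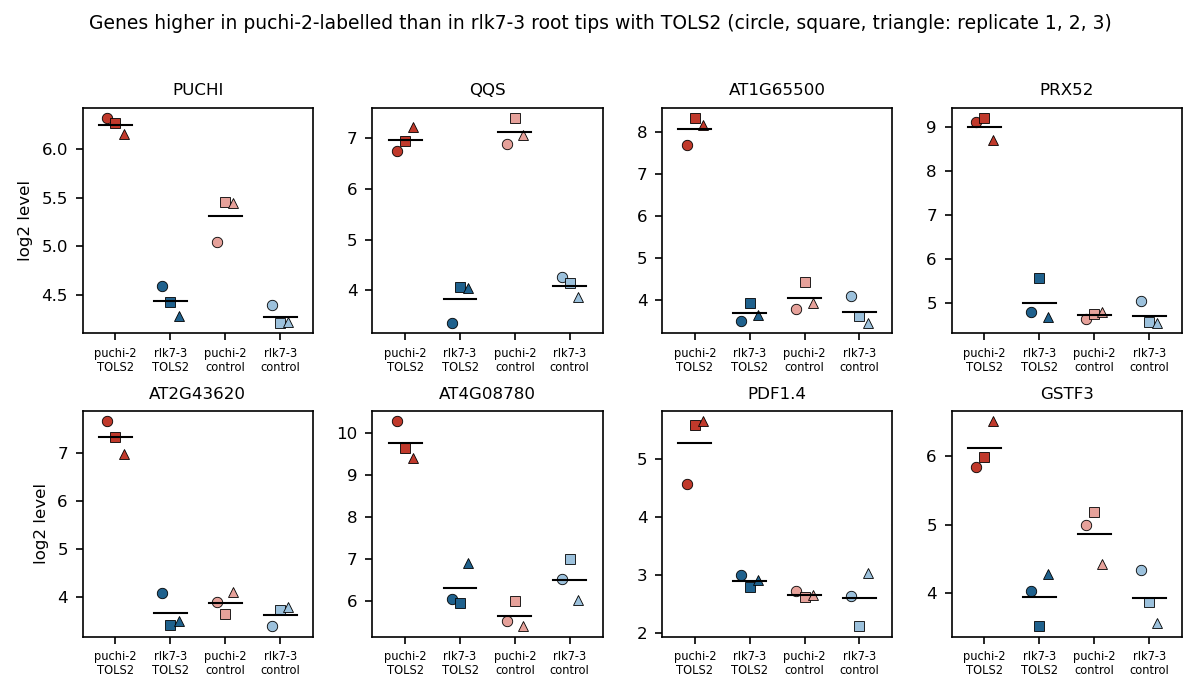
Log2 level (vertical axis, scaled to each gene) of 8 genes on the 12 mutant arrays, with circles, squares and triangles for replicates 1, 2 and 3 and a bar at the mean of each group of 3. PRX52, AT1G65500, AT2G43620, AT4G08780 and PDF1.4 are high only on the puchi-2 TOLS2 arrays among these 12, whereas QQS is as high without peptide and PUCHI and GSTF3 lie between.

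Large differences were also found in genes outside the peroxidases. AT1G65500, for which the annotation used gives no name, had the largest difference: it read 7.70, 8.34 and 8.18 in puchi-2 and 3.5, 3.92 and 3.63 in rlk7-3 (4.39, SE 0.23, 20.9-fold, limma adjusted p = 1.85e-05). AT2G43620, a chitinase family gene, read 7.66, 7.33 and 6.98 against 4.07, 3.42 and 3.49 (3.66, SE 0.21, 12.7-fold, adjusted p = 1.85e-05). In both genes every puchi-2 TOLS2 array lay more than 2-fold above every other mutant array. PDF1.4, which encodes a plant defensin, a small cysteine-rich antimicrobial protein, read 4.57, 5.57 and 5.64 against 3.00, 2.79 and 2.92 (2.36, SE 0.28, adjusted p = 0.00219). Limma called 0 of the other 7 defensin and defensin-like genes measured, with 0 at an unadjusted p under 0.05 and a median of 0.07, and 0 of 2 genes annotated as chitinases (CHI at 0.66 and ChiC at −0.22), also with 0. AT5G61890, an AP2/ERF transcription factor gene, read 7.12, 6.21 and 5.48 against 3.18, 2.78 and 3.72 (3.04, SE 0.36, adjusted p = 0.00238). The puchi-2 arrays of AT5G61890 spread over more than 3-fold and still did not reach the rlk7-3 arrays. With replicate 1 left out in every group its difference was 2.59 and not called (adjusted p = 0.0565), nor was it from the 6 arrays alone (0.0581).

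Of the 15 largest higher differences, 5 more belong to genes that the annotation used does not name. AT3G57460 read 5.52, 4.98 and 5.17 against 2.62, 3.61 and 2.68 (2.25), and AT5G22530 read 4.42, 3.52 and 4.18 against 2.19, 1.96 and 1.97 (2.00). AT1G21520 read 5.51, 5.37 and 5.6 against 3.64, 3.62 and 3.49 (1.91, SE 0.11, limma adjusted p = 1.85e-05). Its replicates lay close together in both groups, which gives the small standard error. AT1G05450 read 7.2, 7.12 and 7.2 against 5.08, 4.72 and 5.21 (2.17), and its control arrays also parted, at 5.22, 6.02 and 5.55 against 5.11, 4.85 and 5.0 (0.61, adjusted p = 0.909). AT3G28580 read 6.08, 5.71 and 5.01 against 3.54, 3.65 and 3.77 (1.95, adjusted p = 0.00888). The sets of arrays did not overlap with TOLS2 in any of these 5. AT3G57460 (adjusted p = 0.068) and AT3G28580 (0.0666) were not called with replicate 1 left out in every group.

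Wall-modifying genes parted in both directions. XTH20, a xyloglucan endotransglucosylase/hydrolase that cuts and rejoins hemicellulose chains, read 7.09, 5.64 and 5.64 in puchi-2 and 4.26, 4.01 and 3.19 in rlk7-3 with TOLS2 (2.30, SE 0.39, limma adjusted p = 0.0156). Its family member XTH33 read 6.39, 6.72 and 6.85 against 7.76, 7.54 and 7.58 (−0.98, SE 0.13, adjusted p = 0.00403). One member of the same enzyme family was therefore higher and another lower (20.0% of 10 measured XTH genes, beside 1.51% of all probe sets). The other 8 XTH genes were not called, and the family median was −0.03 (0.04 after centring of the arrays). EXLA2, an expansin-like gene, read 6.27, 6.18 and 5.85 against 6.95, 6.63 and 6.74 (−0.67, adjusted p = 0.0386). It was the called member among 23 expansins (4.35%), whose median was −0.06 (0.01 after centring). Under renewed quantile normalization the called expansin was instead a higher one. CSLB03, a cellulose synthase-like gene, read 4.04, 4.44 and 4.34 against 5.51, 5.45 and 5.18 (−1.11, SE 0.17, adjusted p = 0.00904). LAC16, a laccase gene of the kind that oxidises wall phenolics, read 8.83, 8.78 and 8.79 against 8.12, 7.56 and 7.69 (1.01, adjusted p = 0.0176). Of the 7 genes of a wall-loosening list, XTH20 was called (14.3%) and EXPA4 (0.45), XTH19 (−0.35), EXPB1 (−0.24), EXPA18 (0.08), EXPA7 (0.07) and XTH18 (−0.01) were not. Under renewed quantile normalization 2 of the 7 were called, both higher.

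Several wall calls ended when arrays were left out. XTH20 was not called without rlk7-3 TOLS2 replicate 3 (adjusted p = 0.0592) or from the 6 arrays alone (0.148). XTH33 was not called with replicate 1 left out in every group (0.0542) or with only the compared arrays fitted (0.0581). LAC16 lost its call without any 1 of the 6 arrays except rlk7-3 TOLS2 replicate 1 (0.0538 to 0.0687). EXLA2 lost it without any 1 of them except puchi-2 TOLS2 replicate 1 (0.0605 to 0.113), and also after centring (0.0638) or renewed quantile normalization (0.057). CSLB03 kept its call under all alternatives run.

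Glutathione S-transferases, which join glutathione to reactive compounds, included a pair of called genes with different control levels. GSTF3, of the phi class, read 5.84, 5.98 and 6.50 in puchi-2 and 4.03, 3.52 and 4.28 in rlk7-3 with TOLS2 (2.17, SE 0.27, limma adjusted p = 0.00326). On its control arrays puchi-2 was also above rlk7-3, at 4.99, 5.18 and 4.42 against 4.34, 3.88 and 3.57 (0.93, adjusted p = 0.855). GSTU25, of the tau class, read 8.35, 8.31 and 8.36 against 7.80, 7.62 and 7.55 (0.68, SE 0.10, adjusted p = 0.00689). GSTU25 also rose in rlk7-3, by 0.83 against its own control (adjusted p = 0.0388), beside 1.77 in puchi-2 and 1.79 in wild type. The other 12 of the 14 family members measured were not called (14.3% called, beside 1.51% of all probe sets). GSTF3 (adjusted p = 0.0643) and GSTU25 (0.0542) lost their call with replicate 1 left out in every group.

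Several other genes of detoxification had differences near 0 between the treated mutants. GSTU22 read 8.36, 8.68 and 8.66 in puchi-2 and 8.76, 8.62 and 8.48 in rlk7-3, a difference of −0.05 with a 95% interval of −0.31 to 0.20. UGT73B5, a UDP-glycosyltransferase that attaches sugar to small molecules, differed by −0.07 (95% interval −0.31 to 0.17) and its relative UGT73B4 by 0.04 (−0.40 to 0.48). All 3 had risen with TOLS2 in wild type by limma (0.72, 0.74 and 0.91), and against their own controls they stood 0.69, 0.57 and 0.89 higher in puchi-2 and 0.67, 0.68 and 0.72 higher in rlk7-3. The rlk7-3 values were not called (adjusted p = 0.267, 0.234 and 0.473), nor was that of UGT73B4 in puchi-2 (0.079). These genes were chosen after their values were seen. UGT87A2 differed instead, at 9.67, 9.73 and 9.80 against 8.88, 9.0 and 9.29 (0.68, adjusted p = 0.0139), and was the called gene among 48 UDP-glycosyltransferases. That share of 2.08% is near the 1.51% of all probe sets, and the family's median difference was −0.08. Its call ended without puchi-2 TOLS2 replicate 2 or 3 or rlk7-3 TOLS2 replicate 2 (0.0501 to 0.0552).

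The genes lower in puchi-2-labelled than in rlk7-3 root tips had smaller differences and fewer names. AT2G22122 read 4.53, 4.85 and 4.72 against 5.80, 6.18 and 6.34 (−1.41, SE 0.14, limma adjusted p = 0.00103). AT5G19970 read 6.36, 6.27 and 6.31 against 7.61, 7.46 and 7.52 (−1.22, SE 0.09, adjusted p = 0.000134). For both, the control arrays of both mutants lay beside the rlk7-3 TOLS2 arrays, so the puchi-2 TOLS2 arrays stood apart from the other 9. AT3G45160 (−1.24), AT1G73600 (−1.20), AT4G39700 (−1.19), AT4G00165 (−1.02), AT4G33960 (−1.0) and AT4G31330 (−0.97) had control differences between −0.06 and 0.13. Their 3 puchi-2 TOLS2 arrays lay below the 3 rlk7-3 arrays in each case. Against their own controls they changed by −1.3 (AT3G45160) to −0.62 (AT4G31330) in puchi-2. In rlk7-3 the changes ran from −0.12 (AT4G00165) to 0.44 (AT1G73600), and limma called none of these. AT1G18780 differed by −1.0, but there the rlk7-3 arrays, at 3.39, 3.3 and 3.7, stood above all other mutant arrays (2.23 to 3.13). All of these levels were low, beside array medians of 6.189 to 6.296.

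Most of these calls ended when a single array, or replicate 1 of every group, was left out. AT2G22122, AT5G19970 and CSLB03 kept their call under every alternative run. AT3G45160 (adjusted p = 0.135), AT4G39700 (0.0738) and AT4G33960 (0.109) lost it with replicate 1 left out in every group. AT1G73600 lost it without puchi-2 TOLS2 replicate 2 or 3 or rlk7-3 TOLS2 replicate 1 (0.0567 to 0.0714). AT4G00165 lost it without puchi-2 TOLS2 replicate 1 or 3 or rlk7-3 TOLS2 replicate 2 or 3 (0.0662 to 0.105). AT1G18780 lost it without any 1 of the 6 arrays except puchi-2 TOLS2 replicate 2 (0.0509 to 0.0889), and AT4G31330 without puchi-2 TOLS2 replicate 2 or any 1 of the rlk7-3 arrays (0.0888 to 0.119).

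**Figure D2:**
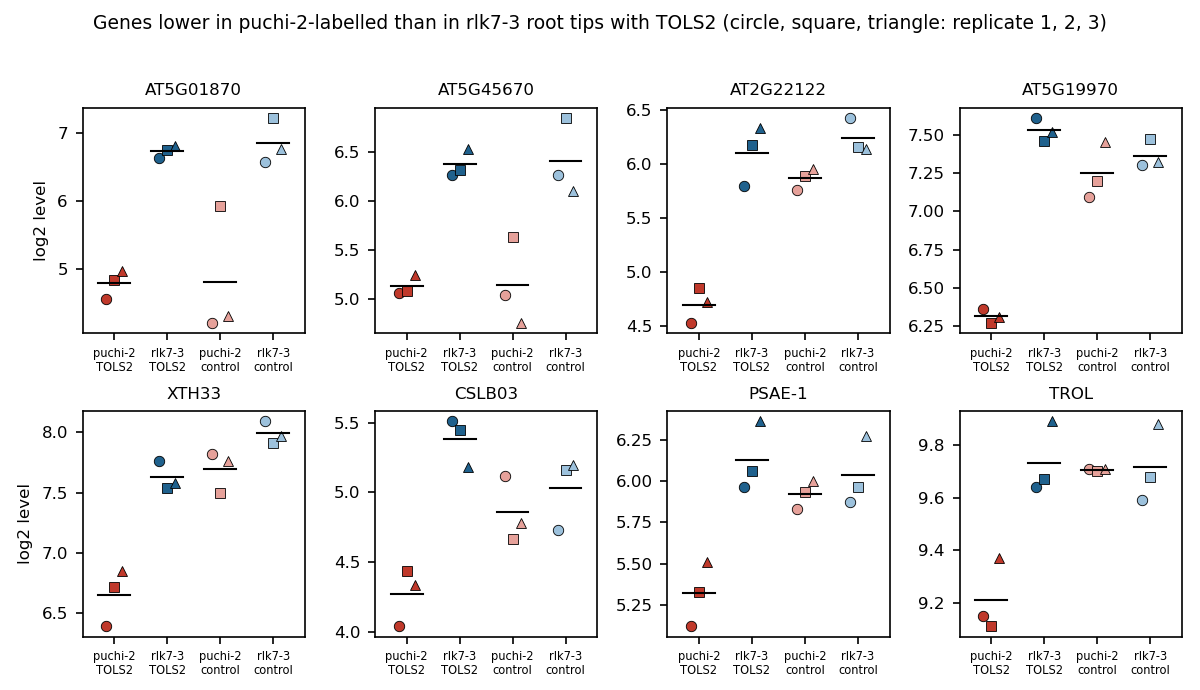
Log2 level (vertical axis, scaled to each gene) of 8 genes called lower in puchi-2-labelled than in rlk7-3 root tips with TOLS2, on the 12 mutant arrays, with circles, squares and triangles for replicates 1, 2 and 3 and a bar at each mean. AT5G01870 and AT5G45670 are also low in puchi-2 without peptide, whereas AT2G22122, AT5G19970, XTH33, PSAE-1 and TROL are lowest on the puchi-2 TOLS2 arrays.

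Nuclear genes of the photosystems and thylakoid, the membrane system of the chloroplast that is sparse in roots, included 4 called lower. Of 17 measured, a list added after values were seen, limma called these 4 (23.5%, beside 0.706% of all probe sets called lower) and 0 higher. Above 0 were 2 of the 17, TAAC (0.34) and AT4G38100 (0.08), beside 33.8% of all probe sets, and LHCB4.3 (−0.05), HCF101 (−0.07) and PIFI (−0.12) lay near the overall median. The list had a median of −0.48 beside −0.06 for all probe sets (−0.42 after centring of the arrays). Without peptide its median difference was −0.09. Against own controls its median was −0.43 in puchi-2, −0.02 in rlk7-3 and −0.36 in wild type. PSAE-1, a photosystem I subunit gene, read 5.12, 5.33 and 5.51 against 5.96, 6.06 and 6.36 (−0.81, SE 0.14, adjusted p = 0.0183). PSBY, a photosystem II subunit gene, read 5.04, 4.89 and 5.31 against 5.70, 5.75 and 6.22 (−0.81, SE 0.17, adjusted p = 0.0433). TROL, which holds ferredoxin reductase at the thylakoid, differed by −0.52 (adjusted p = 0.033) and AT4G01150, a thylakoid curvature protein gene, by −0.50 (adjusted p = 0.0178). The groups did not overlap for 7 of the 17 on the lower side, these 4 among them, and for 1 on the higher side. Of all probe sets 14.9% and 4.85% did so. The light-harvesting protein genes LHB1B2 (−0.84, adjusted p = 0.118), whose groups did not overlap either, and LHCB4.1 (−0.60, 0.14) were not called. Nor was LHCB4.2 (−0.68, 0.225), a called fall of wild type (−1.0, limma adjusted p = 0.0284). Of 63 genes of the plastid genome itself limma called 0, with 20 at an unadjusted p under 0.05 (beside 15.7% of all probe sets), all lower, and a median of −0.13. With all 18 arrays in the fit 2 of the 63 were called lower. The shoot markers RCA, rubisco activase, and PRK, phosphoribulokinase, were at −0.66 and −0.39 without a call, and their mean level was 4.94 to 5.06 on the puchi-2 and 5.32 to 5.86 on the rlk7-3 TOLS2 arrays. The part of green tissue in this result was not tested. All 4 calls ended with replicate 1 left out in every group (adjusted p from 0.119 to 0.196) and from the 6 arrays alone (0.0935 to 0.176). Each ended without at least 3 of the 6 single arrays, among them puchi-2 TOLS2 replicate 2 (0.0673 to 0.141) and rlk7-3 TOLS2 replicates 2 (0.0509 to 0.0764) and 3 (0.0654 to 0.109). That of TROL also ended under renewed quantile normalization (0.0528).

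A smaller class of genes differed between the mutants with and without peptide alike. QQS, an orphan gene of Arabidopsis known for its effect on starch content, read 6.74, 6.94 and 7.21 in puchi-2 and 3.36, 4.06 and 4.05 in rlk7-3 with TOLS2. On control arrays it read 6.88, 7.39 and 7.05 against 4.27, 4.14 and 3.87. The difference was 3.14 (limma adjusted p = 3.6e-05) with and 3.01 (0.000435) without peptide, and wild type read 3.93 to 4.57 on all 6 arrays. AT5G01870 read 4.56, 4.84 and 4.97 against 6.63, 6.74 and 6.81 with TOLS2 (−1.94, adjusted p = 0.0302) and 4.20, 5.92 and 4.31 against 6.57, 7.22 and 6.76 without (−2.04, adjusted p = 0.323). AT5G45670 differed by −1.24 (0.023) and −1.26 (0.311), AT5G02540 by −1.24 (0.00751) and −0.87 (0.464), and AT3G49340 by −0.98 (0.0437) and −0.94 (0.464). In each of these the control arrays of the genotypes did not overlap, although limma called the control difference of QQS only. AT5G01870 and AT5G45670 lost their TOLS2 call without any 1 of the 6 arrays (adjusted p from 0.0559 to 0.0935). AT3G49340 lost it without any 1 of them except rlk7-3 TOLS2 replicate 1 (0.0921 to 0.133), after centring (0.0504) and with renewed quantile normalization (0.0503). AT5G02540 lost it with replicate 1 left out in every group (0.126). Levels of AT3G49340 were low, with means of 2.39 in puchi-2 and 3.37 in rlk7-3 with TOLS2.

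Over all called genes the control arrays showed much smaller differences. The 135 higher genes had a median of 0.90 with TOLS2 and 0.18 without, and 110 of them (81.5%) were above 0 without peptide, beside 53.8% of all probe sets. In 11 of the 135 the control difference was at least 50% of that with TOLS2, PUCHI, QQS, LAC16 and AT2G29340 among them. The 118 lower genes had medians of −0.58 and −0.07, with 77 (65.3%) below 0 without peptide beside 46.2% of all, and 10 reached 50%.

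**Figure D3:**
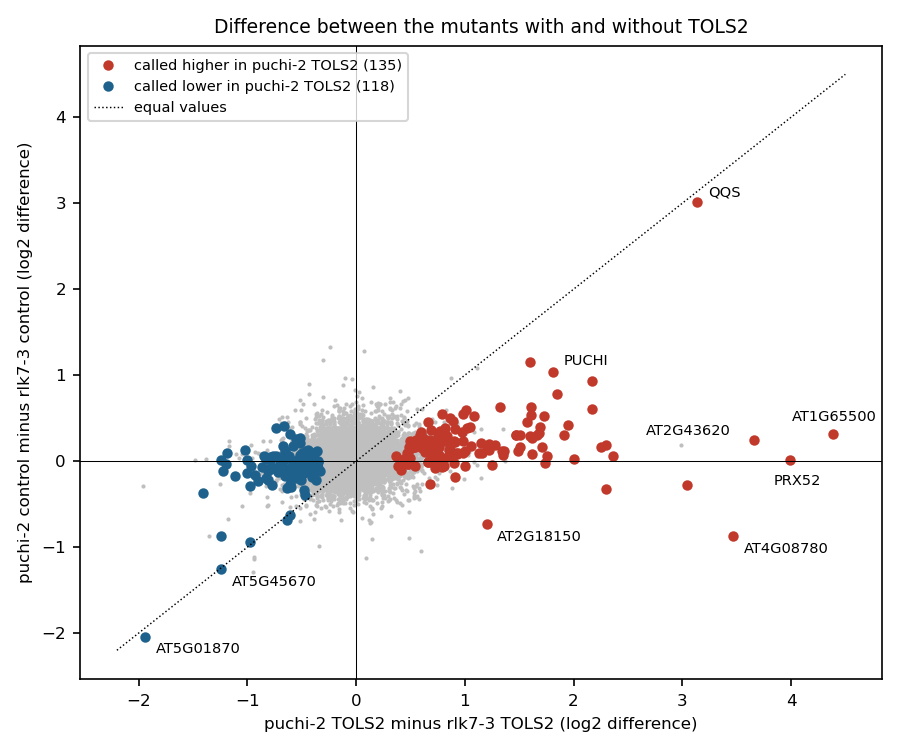
Log2 difference between puchi-2 and rlk7-3 with TOLS2 (horizontal axis) and without it (vertical axis) for each of 16722 probe sets, with the 135 called higher with TOLS2 in red, the 118 called lower in blue and all others in grey. QQS, AT5G01870 and AT5G45670 lie on the dotted line of equal values, PRX52 and AT1G65500 lie near 0 on the vertical axis, and AT4G08780 and AT2G18150 lie below it.

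Whether the difference between the mutants itself changed with TOLS2 was tested as an interaction over the 12 mutant arrays, which shares its arrays with both differences above. Limma called 18 probe sets (0.108%), 16 with a higher response in puchi-2 (0.0957%) and 2 with a lower one (0.012%), and 8.61% had an unadjusted p under 0.05. The 6 largest values of the first kind were 4.34 for AT4G08780 (limma adjusted p = 0.00306), 4.06 for AT1G65500 (0.00086), 3.98 for PRX52 (0.00086), 3.42 for AT2G43620 (0.00127), 3.33 for AT5G61890 (0.0499) and 2.62 for AT4G36430 (0.00208). For PUCHI the value was 0.78 (0.18), for GSTF3 1.23 (0.434) and for QQS 0.13 (0.928), and none of these was called. The 2 of the other kind were AT5G19970 (−1.10, 0.00928) and AT1G36150 (−0.74, 0.0366). AT1G36150 was not called with TOLS2 (−0.16, adjusted p = 0.339). Without it, puchi-2 read 4.35, 4.46 and 4.47 and rlk7-3 read 3.82, 3.84 and 3.89 (0.58, adjusted p = 0.0751). Its interaction call ended without any 1 of the 12 arrays except rlk7-3 TOLS2 replicate 2 (0.0755 to 0.13). That of AT5G61890 ended without any 1 of them except puchi-2 TOLS2 replicates 1 and 3 (0.0545 to 0.152). With replicate 1 left out in every group PRX52 (0.18), AT4G08780 (0.28), AT4G36430 (0.093) and AT5G19970 (0.239) were not called either. Against their own controls limma called 70 probe sets higher and 41 lower in puchi-2, and 2 higher and 0 lower in rlk7-3.

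The 6 wild-type arrays, which share no array with the mutants, were set beside this comparison. Among them limma called 174 probe sets (1.04%) with TOLS2, 128 rises (0.765%) and 46 falls (0.275%), of which 63 rises (0.377%) and 11 falls (0.0658%) were at least 2-fold. This count fell when a single array was left out, to 32 and 56 without wild-type TOLS2 replicate 2 and 3, and to 88, 60 and 43 without wild-type control replicate 1, 2 and 3. Of the 128 rises, 119 (93.0%) were higher in puchi-2 than in rlk7-3 with TOLS2, beside 33.8% of all probe sets, and 65 (50.8%) were called so. Of the 46 falls, 42 (91.3%) were lower and 17 (37.0%) were called. All 63 of the larger rises were higher and 43 of them (68.3%) were called. From the 6 mutant arrays alone 36 of the rises and 2 of the falls were called, and with replicate 1 left out in every group 35 and 2. Read the other way, 65 of the 135 genes called higher (48.1%) were called rises in wild type and 128 (94.8%) had the same sign there, beside 39.5% of all probe sets above 0. Of the 118 called lower, 17 (14.4%) were called falls in wild type and 100 (84.7%) had the same sign, beside 60.5% of all below 0. No gene was called in opposite directions.

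The mean level of these wild-type groups on each mutant array shows where the difference lies. The 128 rises had means of 7.15, 7.06 and 7.11 on the puchi-2 TOLS2 arrays and of 6.17, 6.03 and 6.17 on the rlk7-3 TOLS2 arrays. On control arrays they had 6.0, 6.24 and 6.1 in puchi-2 and 6.06, 5.97 and 5.93 in rlk7-3. The puchi-2 TOLS2 arrays stood alone, and the rlk7-3 TOLS2 arrays lay within the range of the controls, which reached 6.24 on puchi-2 control replicate 2. Each rlk7-3 TOLS2 array was above the rlk7-3 control array of the same number. The median rlk7-3 response of these probe sets was 0.12, beside 0.06 for all probe sets. The 46 falls had means of 6.73, 6.90 and 6.90 against 7.33, 7.34 and 7.47 with TOLS2, and of 7.48 to 7.59 on all 6 control arrays. Here too the puchi-2 TOLS2 arrays were the lowest, while each rlk7-3 TOLS2 array lay below each control array. The median difference between the treated mutants was 0.78 for the rises, where the control difference had a median of 0.12, and −0.56 for the falls, where it was −0.04. After centring of the arrays the medians were 0.84 and −0.50.

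**Figure D4:**
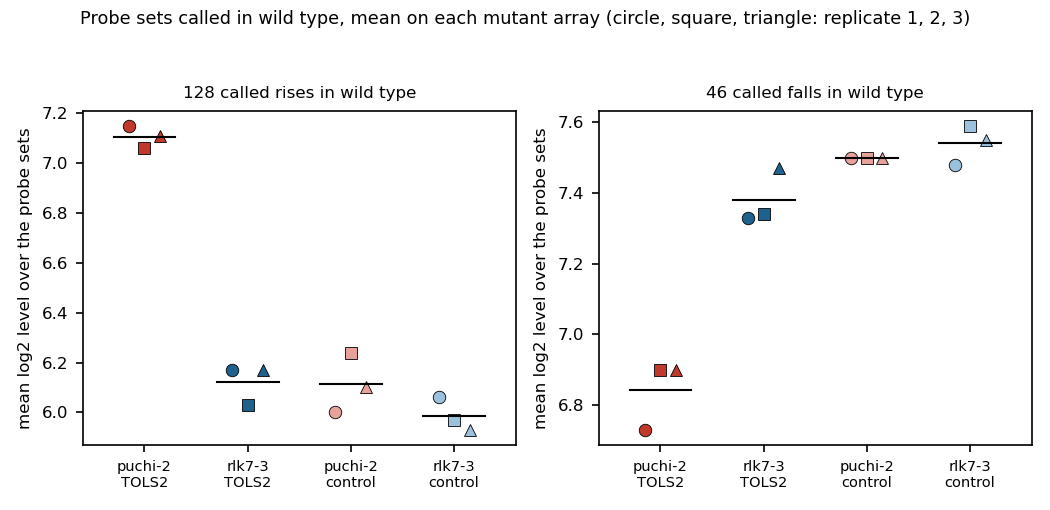
Mean log2 level on each mutant array over the 128 probe sets called as rises (left) and the 46 called as falls (right) in the 6 wild-type arrays, with circles, squares and triangles for replicates 1, 2 and 3 and a bar at each mean. The puchi-2 TOLS2 arrays lie at 7.06 to 7.15 on the left and 6.73 to 6.90 on the right, apart from the other 9 arrays.

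Gene by gene, the difference between the treated mutants was close in size to the wild-type response in some genes and not in others. Over the 128 rises its median was 0.78 beside a median wild-type response of 1.0, and 63 of them were not called between the mutants. Among the close ones, the difference was 4.39 beside a wild-type response of 4.24 for AT1G65500, 3.99 beside 4.11 for PRX52, 2.30 beside 2.28 for XTH20, 2.00 beside 2.06 for AT5G22530 and 1.81 beside 1.96 for PUCHI. For PUCHI the sizes do not compare responses, since the mutants already differed by 1.04 without peptide and its response in puchi-2 was 0.94. It was smaller for AT2G43620 (3.66 beside 4.48) and larger for AT4G08780 (3.47 beside 2.64) and AT5G61890 (3.04 beside 2.23), and whether these sizes differ was not tested. The wild-type call of AT1G65500 ended without wild-type TOLS2 replicate 2 (adjusted p = 0.055), and that of XTH20 without any 1 of those 6 arrays except TOLS2 replicate 1 (0.0584 to 0.103). The germin-like gene AT5G39120, of a family of cell wall proteins, rose by 3.03 in wild type. It read 5.08, 7.25 and 8.03 in puchi-2 and 2.79, 4.13 and 4.46 in rlk7-3 with TOLS2. The groups did not overlap, yet with this spread the difference of 2.99 was not called (adjusted p = 0.0536). It and its family gave 0 calls among 19 measured members, with 4 at an unadjusted p under 0.05, all higher. With all 18 arrays in the fit, after centring, or with replicate 1 left out in every group, 1 of the 19 was called higher. In wild type itself AT5G39120 kept its call when TOLS2 replicate 1 was left out and lost it without each of the other 5 arrays (0.134 to 0.18).

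Of the 8 largest called falls of wild type, 3 were called lower between the treated mutants. AT5G19970 (wild type −1.03), AT4G00165 (−1.21) and AT3G45080 (−1.12) were called lower, the last at 7.88, 8.47 and 8.27 in puchi-2 against 9.09, 8.94 and 9.08 in rlk7-3 (−0.83, limma adjusted p = 0.0146). SWEET11, a sugar exporter gene, had a wild-type response of −1.64 and read 6.18, 6.2 and 8.95 in puchi-2 against 8.01, 8.44 and 9.31 in rlk7-3. Here puchi-2 replicate 3 lay within the rlk7-3 range, and the difference of −1.48 was not called (adjusted p = 0.338). GH9B17, an endoglucanase gene, read 6.81, 7.8 and 7.73 against 7.92, 8.3 and 8.14 (−0.68, adjusted p = 0.203) with no overlap between groups. The serine carboxypeptidase-like gene scpl22 (−1.01, adjusted p = 0.173), AT5G04120 (−0.56, 0.407) and AT5G62420 (−0.54, 0.256) were not called, and their groups overlapped. In wild type, SWEET11 and AT5G04120 lost their call whichever of its 6 arrays was left out (0.0584 to 0.146), and with all 18 arrays in the fit (0.262 and 0.0565). The call of scpl22 ended without any 1 of the 6 except TOLS2 replicate 3 (0.0557 to 0.0948), and that of AT3G45080 without any 1 except TOLS2 replicate 1 (0.0524 to 0.0909). That of AT4G00165 ended without TOLS2 or control replicate 2 or 3 (0.0507 to 0.0675), and that of AT5G19970 without TOLS2 replicate 2 (0.0661) or control replicate 3 (0.0563).

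**Figure D5:**
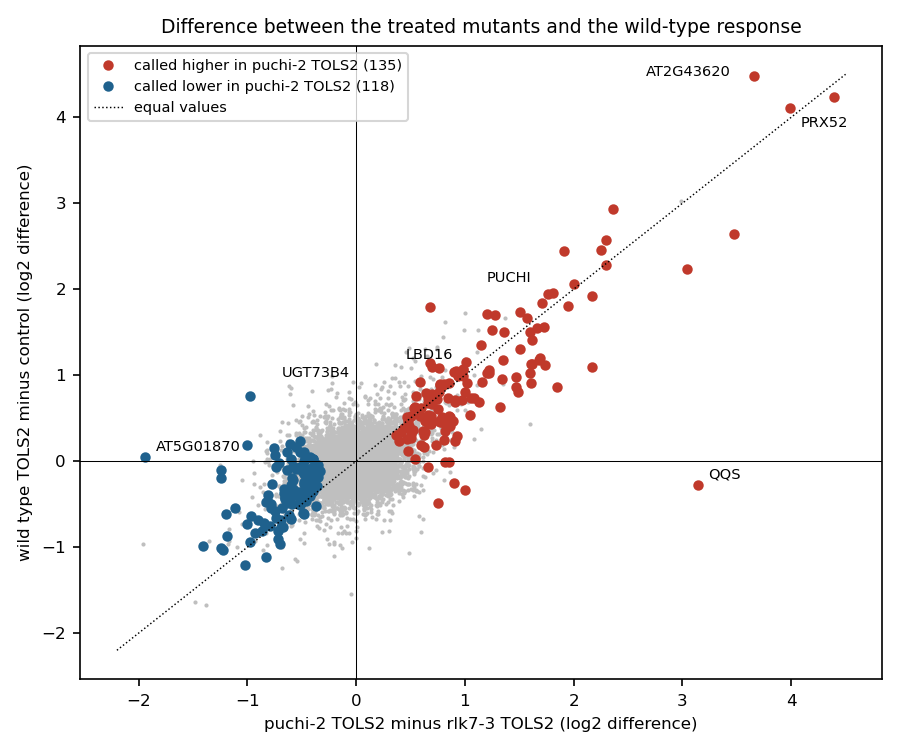
Log2 difference between puchi-2 and rlk7-3 with TOLS2 (horizontal axis) and the TOLS2 response of wild type (vertical axis, 6 other arrays) for each of 16722 probe sets, with those called higher between the mutants in red, called lower in blue and all others in grey. PRX52 and PUCHI lie near the dotted line of equal values, QQS and AT5G01870 lie near 0 on the vertical axis, and UGT73B4 near 0 on the horizontal axis.

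The lateral root genes did not move as a group. Of 4 measured, PUCHI was called higher. LBD16, which encodes a LOB-domain regulator of the first steps of lateral root formation, read 8.41, 8.44 and 8.32 in puchi-2 and 8.20, 7.86 and 8.04 in rlk7-3 with TOLS2. The groups did not overlap, but the difference of 0.36 (95% interval 0.15 to 0.56) was not called (limma adjusted p = 0.0957). Against its own control LBD16 stood 0.52 higher in puchi-2 (adjusted p = 0.0305) and 0.05 higher in rlk7-3 (0.951), beside 1.12 in wild type (0.00393). Its wild-type TOLS2 arrays, at 9.21, 9.33 and 9.36, lay above all puchi-2 arrays. LBD29, a relative, differed by 0.21 (adjusted p = 0.543) and the receptor kinase gene CR4 by −0.05 (0.893). After centring or renewed quantile normalization 2 of the 4 were called higher.

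Other lists held few measured genes and few calls. Of all probe sets 1.51% were called, and in lists this small a single call is not read as a result about the list. Of 7 immune genes PDF1.4 was called, while the zinc finger gene STZ (0.88, adjusted p = 0.261), WRKY22 (0.20), the kinase gene BIK1 (0.14), LCR67 (0.08), WRKY29 (0.05) and the defensin gene PDF1.2 (−0.59, 0.423) were not. WRKY41, of the WRKY transcription factor family, was called among 7 relatives (0.70, adjusted p = 0.0399), and JAL33, a jacalin-type lectin gene, among 5 (0.62, adjusted p = 0.0296). The 5 jacalin-type genes, a list added after values were seen, had a median of 0.44, with 4 above 0 and 1 below. By limma 4 of them had an unadjusted p under 0.05, all higher. WRKY41 lost its call without any 1 of the 6 arrays (0.0586 to 0.125), and JAL33 without any 1 of them except puchi-2 TOLS2 replicate 1 (0.0798 to 0.1). COR47, a cold-induced dehydrin gene, read 10.55, 10.77 and 10.70 against 11.03, 10.99 and 10.99 and was the called gene of 5 on a list of abscisic acid, cold and drought genes (−0.33, adjusted p = 0.0437). That call ended without any 1 of the 6 arrays (0.0595 to 0.11), after centring (0.0877) and after renewed quantile normalization (0.0646). All 5 genes of that list were below 0, with a median of −0.37 (−0.31 after centring), and 2 had an unadjusted p under 0.05 by limma. Beside 15.7% of all probe sets at an unadjusted p under 0.05, counts in the remaining lists were as follows. Limma called 0 of 9 auxin response genes, with 3 at that level, 0 of 5 calcium and touch genes with 0, and 0 of 5 peptide and receptor genes with 2. Centring of the arrays brought 1 auxin response gene past the threshold and renewed quantile normalization 2. Of 26 cytochrome P450 genes limma also called 0, with 3 at that level.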

How the data were processed

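RNA of pooled root tips was measured on 18 one-colour arrays, and the samples were grouped by their titles. The deposited values are log2 levels per probe set that the authors made with RMA (background correction, quantile normalization and probe summary), per the submitters' processing notes. Which release of the software, which definition of probe sets and which genome build they used is not given in the sources used here. Neither a pseudocount nor a filter on low levels was applied to these values. RMA forces a common distribution on the arrays and compresses differences between low levels. The number of arrays limits the precision.

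The platform annotation gave 1 gene to 16722 of 38408 rows, several to 759 and none to 20927. A RefSeq table (TAIR10.1), joined on Entrez identifiers, gave current symbols. It matched 16574 rows and was used only for names and gene order. Tests were run in R 4.3.3 with limma 3.58.1 (lmFit, eBayes) on the 12 mutant arrays with 4 group means (8 residual and 2.64 prior degrees of freedom), and on the 6 wild-type arrays alone. A probe set was called at an adjusted p under 0.05 (two-sided, Benjamini-Hochberg over 16722). On simulated data over 16722 probe sets the TOLS2 comparison recovered 87 of 100 changes of 1 and 45 of 100 changes of 0.5, with 3 false calls, and the interaction 59 and 7, with 6 false calls. The simulated noise was normal and independent between arrays, with the moderated spread of each probe set and no component shared by replicate number. The real arrays hold such a component, so these figures do not give the recovery or the false calls in the real data.

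The members and lists were chosen with earlier results of these data known. The text names PUCHI, the 15 largest called differences each way with TOLS2, up to 6 each way from the control comparison and the interaction, up to 4 called members of a list, and the 12 largest rises and 8 largest falls of wild type as a pool to draw on. Of 447 list entries 65 were measured with 1 gene, and 7 of 24 lists had none. An AP2/ERF family chosen by words in the annotation also caught clone names and was not used. The labels do not say whether replicates came from separate cultures beyond calling them biological, so p-values measure the spread between these samples. Comparing the arrays with each other found 0 pairs with mostly equal values.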

Additional observations from a re-analysis of the deposited data

Results flagged for a closer look

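The TOLS2 response differed between the mutants, by the limma interaction, in 18 probe sets. Beside the 6 largest described above these were AT5G22530 (1.98), the peroxidase gene AT2G18150 (1.93), AT4G11000 (1.71), AT1G21520 (1.61), AT4G39230 (1.31), AT1G23840 (1.28), AT1G30320 (1.24), AT5G48540 (1.09), GSTU25 (0.94) and Prx37 (0.88). The 6 largest were AT4G08780 (4.34), AT1G65500 (4.06), PRX52 (3.98), AT2G43620 (3.42), AT5G61890 (3.33) and AT4G36430 (2.62), and the response was lower in puchi-2 for AT5G19970 (−1.10) and AT1G36150 (−0.74). These 18 hold 5 peroxidase genes, whose control differences were −0.87 (AT4G08780), −0.73 (AT2G18150), −0.32 (AT4G36430), 0.01 (PRX52) and 0.12 (Prx37). A negative control difference enlarges the interaction by construction.

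Probe sets to which the annotation gives no gene carried differences too. In a fit over all rows of the table, limma called 206 of 20927 such probe sets between the TOLS2 arrays, 98 of them higher in puchi-2. The same fit called 395 of all 38408 rows, 209 of them higher. Between the control arrays it called 7 such probe sets, beside 9 of all rows. Some rows of the table repeat the values of another, and 187 of the 206 are left when each repeat is counted once.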

How the results depend on the processing

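No value of the named genes reversed its sign under the alternatives run. Among 44 genes named for the TOLS2 comparison, 811 values under alternatives kept their call 646 times and lost it 165 times, most often without the replicate 1 arrays of all groups (27 genes) or from the 6 arrays alone (21). Both runs used fewer arrays, and the cause of the lost calls was not tested. The count of 253 became 66 with a 2-fold threshold, 444 with all 18 arrays, 395 over all rows of the table, 436 in the brighter 50% of probe sets, 485 with an intensity trend and robust prior, 63 without the replicate 1 arrays and 56 from the 6 arrays alone, and ran from 113 to 199 without 1 array. The control count of 2 became 7 with all 18 arrays, 9 over all rows, 0 among brighter probe sets (over all 16722, limma had 749 at an unadjusted p under 0.05) and 1 from its 6 arrays alone, and ran from 1 to 3 without 1 array. The interaction count of 18 became 47 with all 18 arrays, 29 with array weights, 41 with the trend and 2 without the replicate 1 arrays, and ran from 11 to 14. The wild-type count of 174 became 74 with a 2-fold threshold, 311 with all 18 arrays, 342 among brighter probe sets, 459 with the trend and 19 without the replicate 1 arrays, and ran from 32 to 119. The main fits hold no replicate block, although the second principal component of the 6 arrays followed the replicate number. Same-numbered deviations of both TOLS2 groups correlated at 0.297, 0.072 and 0.142, while rlk7-3 replicate 2 correlated best with puchi-2 replicate 3 (0.104). Among the 4 mutant groups all 18 same-numbered pairs correlated above 0 (0.031 to 0.297), and the other pairs ran from −0.224 to 0.129. With the replicate block limma called 291 (143 higher, 148 lower), 1 in control, 17 by interaction and 71 in wild type; it ended the control call of PUCHI (0.106) and called 7 thylakoid genes lower in place of 4 and 1 germin-like gene in place of 0.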

Other observations

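Some genes differed between the treated mutants without a wild-type response of the same sign, 25 of the 253. AT1G21835 read 3.47, 3.41 and 3.39 in rlk7-3 with TOLS2, above all other mutant arrays (2.37 to 2.85), while the difference was −0.75 (limma adjusted p = 0.00408) and wild type changed by 0.07. It is, beside GSTU25, the gene called in rlk7-3 against its own control (0.89, adjusted p = 0.0388). Its levels were low on all arrays, beside medians over all rows of 6.189 to 6.296 on the 6 arrays compared. RALFL27, a gene of the RALF family of signalling peptides, differed by −0.48 (adjusted p = 0.0364), with rlk7-3 at 6.53, 6.29 and 6.23 and puchi-2 at 5.79, 6.0 and 5.82. AT5G52070 differed by −0.64 with TOLS2 and −0.69 without. On the higher side, AT3G07730 (1.00), AT2G18180 (0.90) and AT3G13010 (0.85) were called while wild type changed by −0.34, −0.25 and −0.01, none of them called. AT3G07730 too was at a low level, 2.77 to 3.0 in puchi-2 and 1.74 to 2.27 in rlk7-3 with TOLS2. These genes were chosen after their values were seen.

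Neighbouring genes were called together at 4 of 10299 places where both neighbours were measured, with the same direction at 3. Of all probe sets 1.51% were called, and whether 4 such places exceed what this share alone would give was not tested. TRI, a tropinone reductase gene, and its neighbour AT2G29340 differed by 1.85 and 1.60, and both also leaned higher in puchi-2 without peptide (0.78 and 1.15, neither called). AT2G26370 and AT2G26380 differed by 0.73 and 1.74, and the peroxidase genes Prx37 and AT4G08780 are described above. Called genes made up 1.37% to 1.61% of those measured on each of the 5 nuclear chromosomes.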
